A study of Mus musculus with 4 samples.

Results

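The nonsense-mediated decay (NMD) factors examined here are 9 mouse genes, Upf1, Upf2, Upf3a, Upf3b, Smg1, Smg5, Smg6, Smg8 and Smg9. They were taken by exact gene symbol from a deposited table of 25265 genes, in which all 9 had 1 row each, and all 9 were among the 21132 genes that passed the filter on low counts. The table holds raw read counts per gene from whole testis of C57BL/6 mice at postnatal day 56, sequenced after ribosomal RNA depletion. The libraries carry the labels control (2 libraries) and Ythdf2-vKO (2 libraries), and the series title describes the mutation as germ cell-specific. The labels name neither the Cre driver nor the deleted exons, do not give the genotype of the control mice beyond that word, and do not say whether a library came from 1 animal. The p-values therefore measure the spread between libraries, which may be technical.

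NMD is a surveillance pathway coupled to translation that degrades mRNAs whose stop codon lies upstream of an exon junction or ahead of a long 3′ untranslated region (3′ UTR). The RNA helicase UPF1 meets the terminating ribosome, UPF2 and the UPF3 proteins connect it to the exon junction complex, and the kinase SMG1, held in check by SMG8 and SMG9, phosphorylates it. Phosphorylated UPF1 then draws in the endonuclease SMG6 and the adaptor SMG5. Several mRNAs of these factors are themselves known targets of the pathway, and in the mouse testis NMD is needed for spermatogenesis. YTHDF2, the protein named in the labels, is a reader of N6-methyladenosine (m6A) that brings bound RNA to decay enzymes.

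Total counts ran from 24862518 to 29561182 per library, and a member received between 420 and 9034 counts in a library. Ythdf2 itself had 1193 and 1604 counts in control against 1774 and 1807 in the vKO-labelled libraries, or 0.35 on the log2 scale (SE 0.13) at an adjusted p of 0.238. A loss of its transcript was thus not seen in whole-gene counts, and the second group is called by its label throughout. Germ cell markers were present in every library. Levels are given in CPM, counts scaled to a common library size. Summed spermatocyte markers stood at 1085 and 1091 CPM in control and at 1095 and 1015 CPM in the vKO-labelled libraries. Of these 7 markers 5 were lower in the latter (median log2 fold change -0.10). Of 6 round spermatid markers 4 were higher (median 0.06). All 6 elongating spermatid markers were lower in the vKO-labelled libraries, with sums of 8259 and 6881 CPM against 6223 and 6300 (median -0.30). Of the spermatocyte, round spermatid and elongating spermatid markers, 0 passed the test. All 7 Sertoli cell markers were higher, with sums of 806 and 864 CPM against 1154 and 1009, and 1 of them passed the test. Markers of spermatogonia (7 of 7), Leydig cells (5 of 5), erythrocytes (4 of 4 tested) and endothelial cells (3 of 4) were also mostly higher. Their median log2 fold changes were 0.22, 0.39, 0.76 and 0.55, and 0 of these markers passed the test. Macrophage markers were higher in 3 of 4 and peritubular myoid markers in 2 of 4 (medians 0.15 and -0.01), and 0 passed. The part of these differences in cell markers in the values below was not tested, and in whole-tissue RNA fewer cells of a type and less RNA per cell cannot be told apart.

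No NMD factor differed between the groups at an adjusted p under 0.05 in edgeR's quasi-likelihood test, against 0.393% of all genes tested (0.279% higher and 0.114% lower in the vKO-labelled libraries). At an unadjusted p under 0.05 there were 2 of the 9, Upf2 and Smg5, both lower, against 14.1% of all genes tested in either direction, 7.65% higher and 6.47% lower. DESeq2's Wald test gave 0 calls at an adjusted p under 0.05 and 2 members at an unadjusted p under 0.05. For the 9 members its fold changes and p-values equalled those in the authors' deposited table at the digits compared, so the table is not a separate result. The median log2 fold change was -0.07 over the 9 members and 0.00265 over all genes tested. Fold changes ran from -0.32 for Smg5 to 0.32 for Upf1 on the log2 scale, with 6 members below 0 and 49.7% of all genes tested below 0. In the edgeR fit, the 95% intervals of the 9 folds reached from 0.67-fold to 1.73-fold, before adjustment for the number of genes tested. These bounds hold for that fit alone, as the fold changes moved with a GC correction and with libraries left out.

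The members differed far more from each other than between the groups. Scaled to the length of the longest annotated transcript, Upf3a stood highest, with a mean of 87.0 ± 6.67 CPM per kb over the 4 libraries (SD, n = 4). Smg9 followed at 67.7 ± 10.7 and Smg5 at 58.4 ± 7.79 CPM per kb, and the ranges of neighbours among these top 3 overlapped. With the longest protein-coding transcript as length, Upf3a had 156 ± 11.99 CPM per kb and lay above Smg9 without overlap, and the order of the 9 was the same. With the union of all exons as length, Upf3a was at 54.9 ± 4.20 CPM per kb, again above Smg9 without overlap. Upf2 (17.9 ± 2.34) then came before Smg6 (16.1 ± 2.26), and Upf3b (7.42 ± 0.958) overlapped Smg8. With the longest transcript as length again, which holds for the values that follow, a gap separated Smg5 from Upf1, at 25.5 ± 5.99 CPM per kb. Neighbours in the run of Upf1, Smg6 (23.3 ± 3.26), Upf2 (18.9 ± 2.47) and Smg1 (16.4 ± 1.79) overlapped. Upf3b, at 11.62 ± 1.501 CPM per kb, lay below Smg1 without overlap, and Smg8 was lowest at 6.28 ± 0.828.

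**Figure D1:**
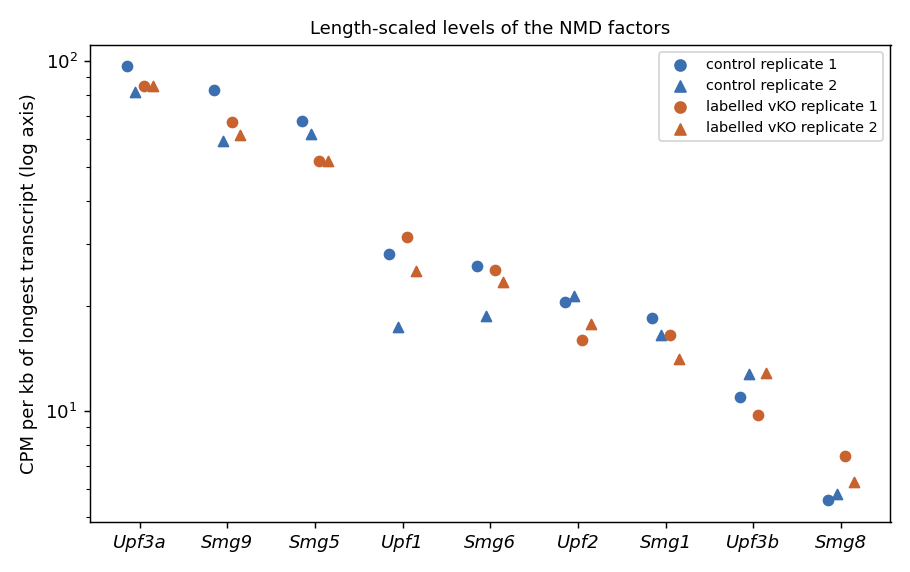
CPM per kb of the longest transcript (log axis) for the 9 NMD factors, ordered by their mean, with 1 point per library. Upf3a, Smg9 and Smg5 lie above 50 CPM per kb in all 4 libraries, and Smg8 lies below 8.

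The paralogues Upf3a and Upf3b lay near opposite ends of this order. Both encode UPF3 proteins, Upf3a from chromosome 8 and Upf3b from the X chromosome, whose genes are silenced as a group during male meiosis. Whether these proteins act alike was not tested. The longest Upf3a transcript is annotated as a retained intron (3698 nt) and the longest Upf3b transcript as a processed transcript (2553 nt). With the longest transcript as length, the Upf3a level was 8.77 and 6.38 times that of Upf3b in control, against 8.69 and 6.59 times in the vKO-labelled libraries. With the longest protein-coding transcript of each (2057 and 2344 nt) the ratios were 14.5, 10.5, 14.3 and 10.9 in the same order. The groups overlapped, and the mean log2 ratio differed by 0.02 between them (exact permutation test, two-sided, p = 1, n = 2 each; the smallest p this design allows is 0.333). Replicate 1 had the higher ratio in both groups.

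The sequences just upstream of the start sites are shown for this pair, as paralogues with levels far apart, and for Smg5, the member with the smallest p. Each run is the 250 bases before the RefSeq transcription start in GRCm38.p6, and all 9 members had an entry. Upf3a lies at chr8:13785365-13785614 on the plus strand, Upf3b at chrX:37110323-37110572 on the minus strand and Smg5 at chr3:88336010-88336259 on the plus strand. Capitals mark TCGCGAGA on either strand (TCTCGCGA on the other), the core of an element known to be bound by BANP at promoters of housekeeping genes, which was chosen after the sequences had been read.
Upf3a: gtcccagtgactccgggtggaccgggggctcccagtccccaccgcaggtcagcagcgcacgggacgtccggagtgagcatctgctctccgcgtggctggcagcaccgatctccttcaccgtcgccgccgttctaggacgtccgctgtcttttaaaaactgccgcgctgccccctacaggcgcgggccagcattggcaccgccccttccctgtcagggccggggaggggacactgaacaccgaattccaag
Upf3b: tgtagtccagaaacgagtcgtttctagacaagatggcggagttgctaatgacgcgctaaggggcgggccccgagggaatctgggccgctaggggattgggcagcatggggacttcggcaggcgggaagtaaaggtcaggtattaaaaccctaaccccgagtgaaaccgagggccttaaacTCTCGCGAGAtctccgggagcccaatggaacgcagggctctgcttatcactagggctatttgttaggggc
Smg5: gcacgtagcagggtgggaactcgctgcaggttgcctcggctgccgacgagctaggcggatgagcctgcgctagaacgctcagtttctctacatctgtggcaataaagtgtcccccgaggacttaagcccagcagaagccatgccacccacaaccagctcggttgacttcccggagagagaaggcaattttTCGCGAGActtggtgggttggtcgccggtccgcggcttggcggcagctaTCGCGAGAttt
These letters were found in 2 of the 9 members, Upf3b and Smg5, and in 0.858% of 32851 mouse promoter windows of this length. In Upf3b the match reads the same on both strands and overlaps itself, and Smg5 holds 2 separate matches. A match is a string of letters and not evidence of binding. The 3 windows hold 23, 16 and 20 CpG dinucleotides for Upf3a, Upf3b and Smg5, against a median of 6 over all windows.

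Among the UPF genes, Upf1 (ENSMUSG00000058301, minus strand of chromosome 8, 70331525 to 70353278 in GRCm38) encodes the helicase at the centre of the pathway. It had 130 and 80.3 CPM in control against 145 and 116 CPM in the vKO-labelled libraries. The first control library lay between the vKO-labelled pair and the second below both, so the groups overlapped. On the log2 scale the difference was 0.32 (SE 0.21, 95% interval -0.16 to 0.79, adjusted p 0.565). The value moved with each library left out, and the control libraries differed 1.62-fold from each other. Without control replicate 1 the log2 fold change was 0.70 (adjusted p 3.81e-05), and without control replicate 2 it was 0.01 (adjusted p 0.981). It was 0.15 and 0.46 without replicate 1 and replicate 2 of the vKO-labelled libraries, with adjusted p of 0.981 and 0.575.

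Upf2 (ENSMUSG00000043241, plus strand of chromosome 2, 5951469 to 6056703), the scaffold that links UPF1 to the UPF3 proteins, had 106 and 110 CPM in control against 82.6 and 92.1 CPM in the vKO-labelled libraries. Both of the latter lay below both control libraries. The log2 fold change was -0.31 (SE 0.12, 95% interval -0.58 to -0.04), at an unadjusted p of 0.0268 and an adjusted p of 0.283. With libraries left out in turn it ran from -0.39, without vKO-labelled replicate 2, to -0.23, without vKO-labelled replicate 1. In those fits a group holds a lone library, so the range is a description.

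Upf3a (ENSMUSG00000038398, plus strand of chromosome 8, 13785615 to 13799193) was the most abundant member, at 358 and 301 CPM in control against 314 and 314 CPM in the vKO-labelled libraries. The latter lay between the control libraries, and the log2 fold change was -0.07 (SE 0.12, adjusted p 0.864). Upf3b (ENSMUSG00000036572, minus strand of chromosome X, 37091678 to 37110322) had 28.2 and 32.6 CPM in control against 24.95 and 32.95 CPM in the vKO-labelled libraries. These ranges were nested, and the log2 fold change was again -0.07 (SE 0.16, adjusted p 0.897). Its 95% interval ran from -0.42 to 0.28 and that of Upf3a from -0.34 to 0.20.

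**Figure D2:**
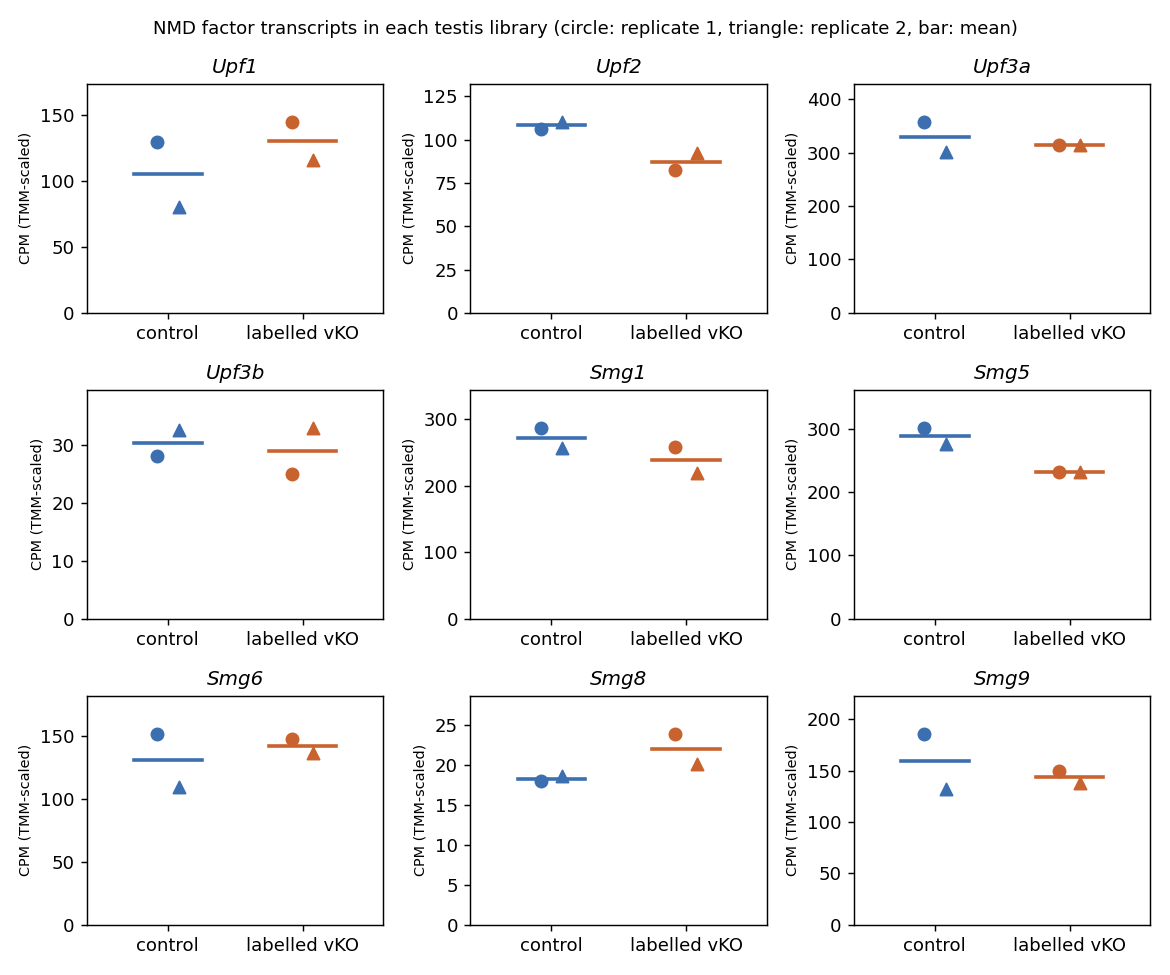
TMM-scaled CPM of each NMD factor in the 4 testis libraries, with axes starting at 0 (circle: replicate 1, triangle: replicate 2, bar: group mean). The groups are apart for Upf2, Smg5 and Smg8 and overlap for the other 6 members. As a ratio, the gap between control libraries is widest in Upf1 (1.62-fold).

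No gene of the SMG1 kinase complex passed the test. Smg1 (ENSMUSG00000030655, minus strand of chromosome 7, 118131308 to 118243670), the kinase that phosphorylates UPF1, had 287 and 257 CPM in control against 257 and 219 CPM in the vKO-labelled libraries. The lower control library and the higher library labelled vKO were level at 257 CPM, and the log2 fold change was -0.19 (SE 0.13, adjusted p 0.552). With 1 library left out it ran from -0.31, without replicate 1 of the vKO-labelled libraries, to -0.08, without replicate 2 of them. Smg8 (ENSMUSG00000020495, minus strand of chromosome 11, 87077732 to 87086774), a subunit that restrains the kinase, had 18.0 and 18.7 CPM in control against 23.9 and 20.2 CPM in the vKO-labelled libraries. It was the only member in which both libraries labelled vKO lay above both control libraries, and its log2 fold change was 0.27 (SE 0.15, 95% interval -0.07 to 0.60, adjusted p 0.476). Without replicate 1 of the vKO-labelled libraries it was 0.14, and without replicate 2 of them 0.38. Smg9 (ENSMUSG00000002210, plus strand of chromosome 7, 24399619 to 24422778), the partner of SMG8, had 186 and 133 CPM in control against 150 and 138 CPM in the vKO-labelled libraries. The latter fell between the control libraries, which differed 1.404-fold. Its log2 difference of -0.14 (SE 0.15, adjusted p 0.741) was 0.11 without control replicate 1 and -0.37 without control replicate 2.

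Neither effector examined here passed the test. Smg5 (ENSMUSG00000001415, plus strand of chromosome 3, 88336260 to 88362338), an adaptor that binds phosphorylated UPF1, had 301 and 275 CPM in control against 231 and 231 CPM in the vKO-labelled libraries. The latter were nearly equal and below both control libraries. The log2 fold change was -0.32 (SE 0.12, 95% interval -0.57 to -0.06), at an unadjusted p of 0.0184 and an adjusted p of 0.247. Leaving out control replicate 2 brought it to -0.38 at an adjusted p of 0.0275, and leaving out control replicate 1 to -0.26 at an adjusted p of 0.177. Without either vKO-labelled library it stayed at -0.32, with adjusted p of 0.884 and 0.670 and an unadjusted p above 0.05 in both. Smg6 (ENSMUSG00000038290, plus strand of chromosome 11, 74925823 to 75164448), the endonuclease that cuts the target near its stop codon, had 152 and 109 CPM in control against 148 and 137 CPM in the vKO-labelled libraries. The latter lay between the control libraries, and the log2 difference of 0.12 (SE 0.15, adjusted p 0.781) was 0.37 without control replicate 1 and -0.09 without control replicate 2.

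Groups that did not overlap were thus found for 3 of the 9 members (1 higher, 2 lower), against 45.3% of all genes tested. In the authors' deposited table, and thus in DESeq2's Wald test, the log2 fold changes of the members ran from -0.32 for Smg5 to 0.31 for Upf1, and the smallest adjusted p was 0.285, for Smg5.

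**Figure D3:**
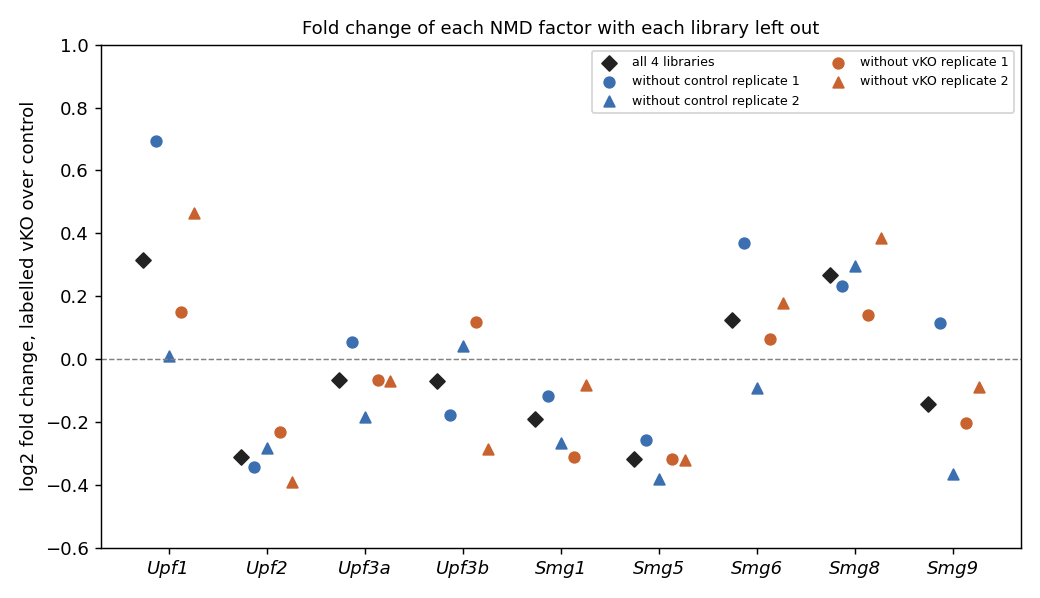
Log2 fold change of each NMD factor with all 4 libraries (diamond) and with each library left out. For Upf1 the value runs from 0.01 to 0.70 depending on which control library is left out, whereas Smg5 stays between -0.38 and -0.26.

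In 5 of the 9 members (Upf1, Upf3a, Upf3b, Smg6 and Smg9) the control libraries differed from each other by more than the groups did, as in 54.9% of all genes tested. The ratio of control replicate 1 to control replicate 2 went from 0.863 for Upf3b to 1.62 for Upf1. It was highest in GC-rich members other than Smg5, with GC content ranging from 42.7% in Upf3b to 60.3% in Smg9 around a median of 48.9% for all genes tested. Over the 9 members the Spearman correlation of this log2 ratio with GC content was 0.75 and the Pearson correlation 0.75. In the vKO-labelled libraries the ratio of replicate 1 to replicate 2 also ran from Upf3b, at 0.757, to Upf1, at 1.25. Its log2 value had the opposite sign to that in control for Upf3a, Smg5 and Smg8. The log2 fold change between the groups had a Spearman correlation with GC content of 0.23 and a Pearson correlation of 0.26. The 9 points share the same libraries, so these values are a description. Across all genes, the deviation of a library from the mean of the 4 had a Spearman correlation with GC content of 0.02 and -0.40 in the control libraries and of 0.25 and 0.19 in the vKO-labelled libraries.

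**Figure D4:**
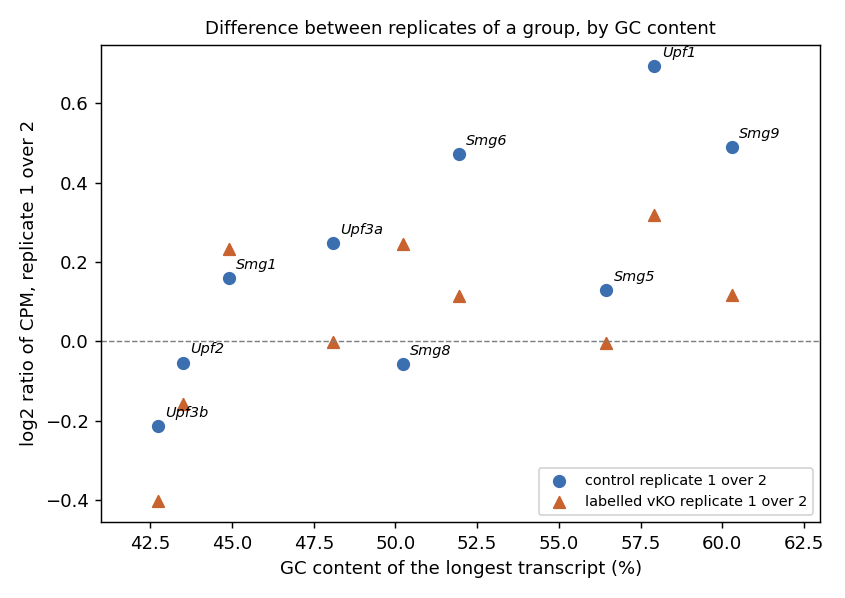
Log2 ratio of replicate 1 to replicate 2 within the control group (circles, named) and within the vKO-labelled libraries (triangles) against GC content of the longest transcript, in percent. In control, the GC-rich Upf1, Smg9 and Smg6 lie above 0.4, and the GC-poor Upf2 and Upf3b lie below 0.

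With a GC correction per library, the fold changes of the 2 most GC-rich members moved down, to 0.14 for Upf1 and -0.36 for Smg9. Smg5, with a GC content of 56.5%, went to -0.48 at an adjusted p of 0.0874, and Upf2, at 43.5%, to -0.25. No member passed the threshold after the correction. The members at an unadjusted p under 0.05 were then Smg5 and Smg9, as Upf2 stood at 0.0575, and with library totals alone they were Upf1 and Smg5. The part of GC content in the values without correction was not tested beyond this.

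Transcript features were then described for the 9 members, with the 15845 tested genes that have a protein-coding transcript as background. An isoform annotated as an NMD substrate was present for 3 members (Smg1, Smg5 and Smg6, with 1 each), against 25.7% of the background. The counts are per gene and do not separate such isoforms from the others. The 3′ UTR of the longest protein-coding transcript was 4233 nt in Smg1, longer than that of 93.8% of the background, and 221 nt in Smg8, longer than 15.9%. Those of the other 7 members ran from 400 nt in Smg9 to 1498 nt in Smg6, around a background median of 990 nt.

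The letters GGACT, a common form of the sequence context in which m6A is placed, were searched on the sense strand of the same transcripts. They were found in 8 of the 9 members, against 91.0% of the background, and the 9 densities ran from 0 in Upf3a to 1.35 per kb in Smg5, around a background median of 1.05. The match nearest to the stop codon is shown for the 4 members with the largest fold changes in either direction, with the letters searched in capitals and up to 12 bases before and after.
Upf1: gggccgggagaaGGACTtcatcattctgt
Upf2: ttgggggctccaGGACTacagtagaaaag
Smg5: atgcagatgcctGGACTctctataagatc
Smg8: acattgtcatcaGGACTagagctgaagat
The match lies in the coding sequence in Upf1, Smg5 and Smg8 and in the 3′ UTR in Upf2. Whether any of these bases carries m6A was not measured here. The 3 members with a density above the background median, Smg5, Smg8 and Smg6, had log2 fold changes of -0.32, 0.27 and 0.12. Those of the other members ran from -0.31 in Upf2 to 0.32 in Upf1. Upf3a, with no match, and Upf3b, with 2, both had -0.07. The 95% intervals of Upf3a and Upf3b were -0.34 to 0.20 and -0.42 to 0.28. A relation between these letters and the fold changes was not tested.

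The genes that work with these factors were examined as lists. Of 10 other NMD factors, 0 passed the test and 2 had an unadjusted p under 0.05 (Mov10 and Nbas), against 14.1% of all genes tested. Among the 10, 3 had log2 fold changes above 0 and 7 below, with a median of -0.05. The highest was Mov10, an RNA helicase found with UPF1, at 21.6 and 19.7 CPM in control against 27.5 and 27.4 CPM in the vKO-labelled libraries (log2 fold change 0.41, SE 0.14, adjusted p 0.229). The lowest was Nbas, a factor known for NMD at the endoplasmic reticulum, at 131 and 123 CPM against 107 and 100 CPM (log2 fold change -0.30, SE 0.12, adjusted p 0.296). In both genes the groups did not overlap, as in 45.3% of all genes tested. With a GC correction per library Mov10 went to 0.23 at an unadjusted p of 0.11. The termination factors Etf1, Gspt1 and Gspt2 had log2 fold changes of -0.16, -0.20 and 0.42, and 0 of the 3 passed even at an unadjusted p under 0.05. Gspt2, a retrogene copy of Gspt1, was the least abundant of them, with 5.86 and 6.20 CPM in control against 7.40 and 8.78 CPM in the vKO-labelled libraries.

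The 11 exon junction complex genes, whose products mark spliced junctions for UPF3, had 0 genes past the threshold and 1, Rnps1, at an unadjusted p under 0.05. Over all genes tested, 14.1% had such a p. Of the 11, 9 had log2 fold changes above 0 and 2 below, against 49.7% of all genes tested below 0, with a median of 0.11. Rnps1, a peripheral component, was highest at 49.1 and 45.2 CPM in control against 64.9 and 59.2 CPM in the vKO-labelled libraries (log2 fold change 0.40, SE 0.13, adjusted p 0.206), with both of the latter above both control libraries. Its adjusted p was 0.0361 without control replicate 1 and 0.179 without control replicate 2, and 0.884 and 0.458 without replicate 1 and replicate 2 of the vKO-labelled libraries. The core gene Magoh was lowest, at -0.03 (SE 0.18), and its sign changed with the scaling, to 0.03 with library totals alone.

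Transcripts known to be degraded by NMD were examined as a further list, which was also chosen with earlier results of these data known. Of 13 such genes 12 were tested, Atf3 being too low, and 0 passed the threshold. At an unadjusted p under 0.05 there were 2, Gadd45a and Gadd45b, against 14.1% of all genes tested. The list had 7 log2 fold changes above 0 and 5 below and a median of 0.08. The stress-response gene Gadd45a, whose mRNA is a classical substrate, was highest, with 1.33 and 2.17 CPM in control against 3.89 and 2.93 CPM in the vKO-labelled libraries. Its log2 fold change was 0.95 (SE 0.33, 95% interval 0.24 to 1.66) at an unadjusted p of 0.0128 and an adjusted p of 0.225, from 31 to 104 counts per library. It ran from 0.64 without control replicate 1 (adjusted p 0.336) to 1.36 without control replicate 2 (adjusted p 0.0298), and was 0.73 (adjusted p 0.877) and 1.14 (adjusted p 0.284) without replicate 1 and replicate 2 of the vKO-labelled libraries. Gadd45b had a value of 0.61 (SE 0.24) at an adjusted p of 0.276. The snoRNA host gene Snhg12 was lowest, at 2.70 and 2.67 CPM against 2.09 and 2.04 CPM (log2 fold change -0.38, SE 0.30, adjusted p 0.628). Of the rest of the list, Nat9, Gas5, Snhg5 and Tbl2 had values of -0.16, -0.15, -0.04 and -0.01. Epb41l4aos, Zfas1, Snhg1, Atf4 and Ddit3 had values of 0.43, 0.42, 0.16, 0.14 and 0.02. By the p-values in the authors' deposited table, 2, 0, 1 and 1 genes of the other NMD factors, termination factors, exon junction complex and substrates had an unadjusted p under 0.05, and 0 an adjusted p under 0.05.

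**Figure D5:**
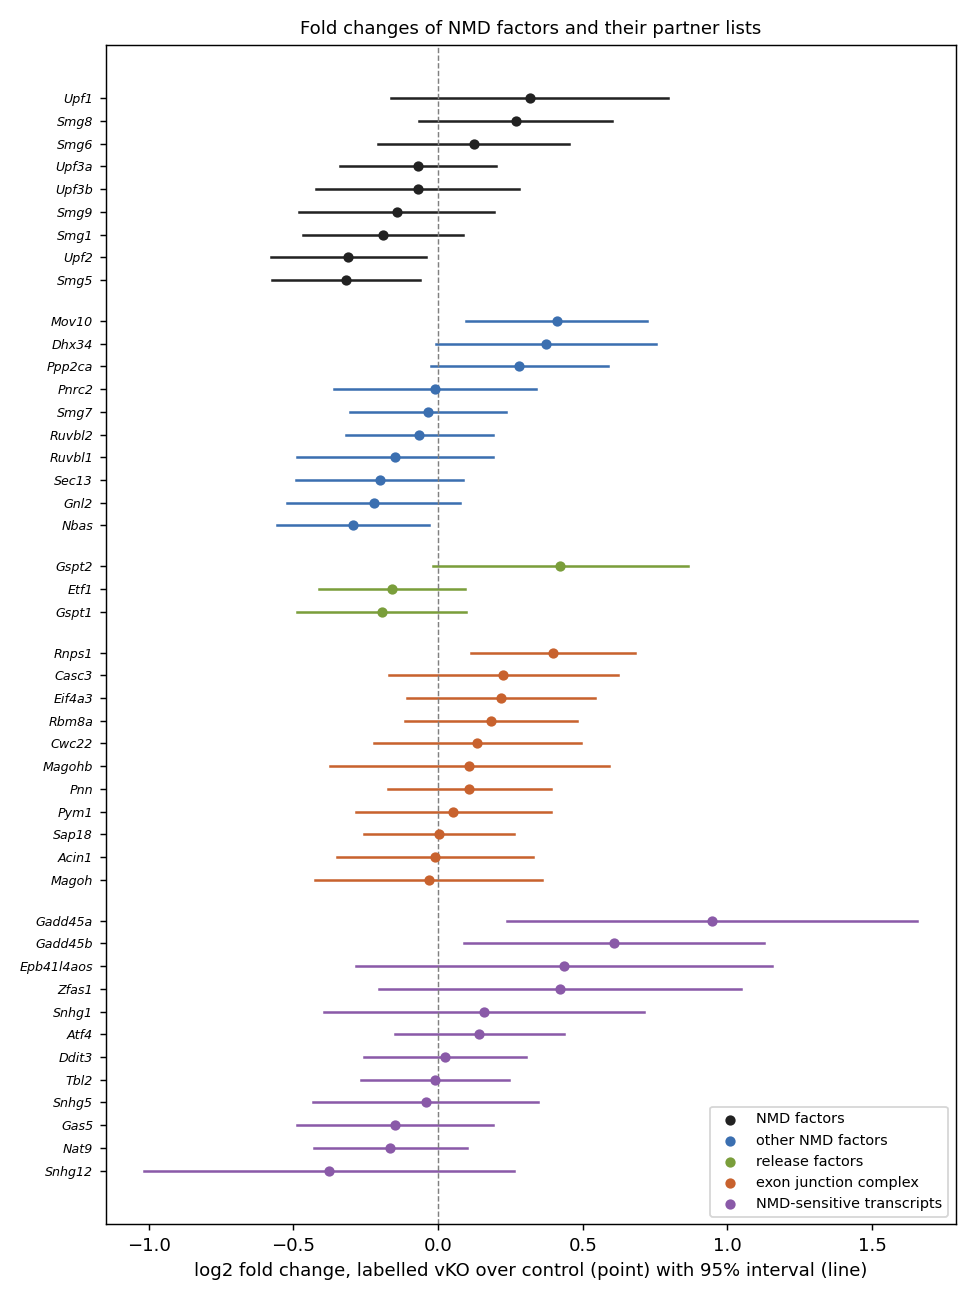
Log2 fold change of the vKO-labelled libraries over control (points) with 95% intervals from the edgeR fit (lines) for the 9 NMD factors and the 4 partner lists. The intervals of Upf2 and Smg5 lie below 0 before adjustment for the number of genes tested, and those of the other 7 members hold 0.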

How the data were processed

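Per the submitters' processing notes, HISAT2 2.1.0 and HTSeq 0.6.1p1 were used. Their settings, the use of strand and the genome build are not given in the sources used here. The labels' protocols name a directional library kit. The authors deposited raw read counts per gene. Per the file headers, they also deposited a mean normalized count (a signal), a log2 fold change, its standard error and a test statistic (the latter pair each a score), and p-values. Quoted header text shifts the column names, so columns were read by position. Summed over the 4 libraries, every deposited gene had at least 10 counts.

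Counts were tested with edgeR 4.0.16 (limma 3.58.1, R 4.3.3), TMM scaling, filterByExpr and a robust quasi-likelihood fit of genotype over 21132 genes, with Benjamini-Hochberg adjustment and a threshold of 0.05. The script was run on simulated counts with the same dispersion for every gene and no GC or replicate effect. That run cannot show how the tests behave where such effects are present. CPM are TMM-scaled. SE is the absolute log2 fold change over the square root of F, and intervals use the t distribution. DESeq2 1.42.0 was an alternative. Replicate counts differed by more than sampling noise (chi-square per degree of freedom 21.2 in control and 8.41 in the other group). GENCODE M21 (GRCm38) gave coordinates, lengths and GC, and RefSeq (GRCm38.p6) gave promoters. Exons of Upf1 overlap Cers1 and Gdf1 on the opposite strand by 68 and 63 nt, and those of Smg6 overlap Srr and Gm12333 by 126 and 117 nt.

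All 9 members are named, with the called genes and the highest and lowest fold change of each partner list. Etf1 and the tested NMD substrates other than Gadd45a and Snhg12 were named after their values were seen. Members, lists and marker genes were chosen with earlier results of these data known.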

Additional observations from a re-analysis of the deposited data

How the results depend on the processing

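Of the member genes, 0 were called under any alternative scaling, filter, test, GC correction or replicate block. When 1 library was left out, members called higher ran from 0 to 1 (Upf1) and members called lower from 0 to 1 (Smg5), members at an unadjusted p under 0.05 from 0 to 4, and the median log2 fold change from -0.19 to 0.054. Those fits assume that the lone library of a group varies like the others. Genes called over the whole table were 59 higher and 24 lower, 181 and 37 with library totals alone, 137 and 80 with DESeq2's Wald test, 50 and 15 without robust estimation, 76 and 65 with the GC offset, and 8 and 2 at an adjusted p under 0.01. They ran from 30 to 1048 higher and from 5 to 523 lower with 1 library left out. The labels do not say what the replicate numbers mark. The 2 pairs of equal number deviated together with a correlation of 0.06 over all genes tested, and they were not taken as pairs. Genes with low counts are among those, so this value cannot exclude a pairing. With the replicate block there were 627 and 390 calls, and 144 and 147 when the block was joined with the GC offset. In the quasi-likelihood test with the block alone, Upf1, Upf2 and Smg5 had adjusted p of 0.0658, 0.0844 and 0.0941. Rnps1 passed with the replicate block (adjusted p 0.0376). The log2 fold change of Upf3a changed sign with library totals alone (0.00194), and that of Magoh with library totals alone (0.027), the GC offset (0.045) and that offset with the replicate block (0.0501). With 1 library left out, Upf3a ran from -0.19 to 0.054, Upf3b from -0.29 to 0.12, Smg1 from -0.31 to -0.081, Smg6 from -0.092 to 0.37, Smg8 from 0.14 to 0.38, Smg9 from -0.37 to 0.11 Gspt1 from -0.32 to -0.085 and Magoh from -0.21 to 0.17. The difference in the log2 Upf3a to Upf3b ratio ran from -0.21 to 0.25, and the log2 level ratio was 2.91, or 3.63 with the longest protein-coding transcript, an alternative chosen after seeing the data. A stricter threshold passes fewer genes by construction. Elsewhere the cause was not tested.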
